A study of Mus musculus with 9 samples.

Results

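Described here are 10 noncoding RNA genes, of the 23309 gene symbols in the files, in D2.0R cells: the nuclear RNAs Neat1 and Malat1, the snoRNA host RNAs Gas5, Snhg1, Snhg3, Snhg5, Snhg8 and Snhg12, and the imprinted RNAs H19 and Meg3. They were chosen by name, and the choice was made knowing that Neat1 stood out in 1 library, so the levels of Neat1 are given as a description with no test. D2.0R is a mouse mammary tumour line that stays largely quiescent on basement membrane extract (BME) and grows once type I collagen (COL) is added to the matrix. RNA sequencing covered 3 groups of 3 biological replicates, named a, b and c. These were D2.0R cells on BME at day 1, D2.0R cells on BME at day 5, and D2.0R cells on BME + COL at day 5. The cells were of 1 line with no genotype or drug treatment named, so the replicates measure the spread between cultures of that line. BME + COL was sampled at day 5 and not at day 1, so BME + COL day 5 and BME day 1 differ in matrix and in day at once, and these cannot be told apart.

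A paraspeckle is a nuclear body built around Neat1 RNA, which binds the proteins Sfpq, Nono and Pspc1, and Malat1 gathers in the neighbouring nuclear speckles, where SR splicing factors are stored. A snoRNA host RNA is spliced to release small nucleolar RNAs from its introns, and these guide the methylation (C/D box class) or pseudouridylation (H/ACA box class) of ribosomal RNA, while the spliced host is often degraded by nonsense-mediated decay. H19 and Meg3 are expressed from the maternal chromosome, mainly in the embryo and placenta and in some tumours.

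The values are FPKM, fragment counts scaled by the length of the transcript and the size of the library, so levels can be compared between genes per length but give no amount per cell. A value that differs between cultures may reflect fewer cells with the RNA or less RNA per cell, which cannot be told apart in bulk libraries. The libraries held 7.21 to 9.37 gigabases over transcripts. The epithelial keratins Krt8 (395 to 1324 FPKM) and Krt18 (362 to 1088 FPKM) were high in all 9 libraries, whereas Krt5, Krt19 and Cldn7 stayed below 1 FPKM, as did all 4 endothelial markers. Cdh1 was at 15.9 to 38.0 FPKM, Krt14 at 9.26 to 24.4 and Epcam at 0.531 to 1.59. The mesenchymal markers Vim (616 to 1293 FPKM) and Fn1 (247 to 483) were high too, while Cdh2 stayed below 1 FPKM. At day 5 Zeb1 (log2 1.31) and Fn1 (0.55) were called higher on BME than on BME + COL, and Vim (-0.71) and Cdh1 (-0.92) lower. Of the haematopoietic markers, Emr1 and Cd3e were at 0 and Ptprc did not pass 0.0763 FPKM, but the lysosomal protein gene Cd68 was at 2.59 to 3.44 FPKM in the BME libraries and at 0.942 to 1.14 on BME + COL (log2 difference at day 5 1.44, adjusted p = 1.1e-05, limma). Of 4 fibroblast markers, Col1a2 and Dcn stayed near 0, and both tested ones were higher on BME than on BME + COL at day 5. The receptor gene Pdgfra was at 20.2 ± 2.57 against 2.71 ± 0.02 FPKM (SD, n = 3, log2 2.85, adjusted p = 7.56e-07, limma) and the collagen gene Col1a1 at 3.18 ± 1.35 against 1.49 ± 0.05 (log2 0.95, adjusted p = 0.0198, limma). The part of these markers in the differences below was not tested. The summed level of 4 proliferation genes (Mki67, Top2a, Cdk1 and Ccnb1) was 297 to 308 FPKM on BME + COL at day 5, 85.1 to 101 on BME at day 1 and 28.6 to 98.1 on BME at day 5. BME day 5 replicate a held 7.25% of its FPKM in genes under 300 nt, against 0.440 to 2.12% in the other libraries. BME day 5 replicate b stood apart in proliferation, with the gene Mki67 at 4.88 FPKM, against 18.5 and 14.6 in replicates a and c. Differences of the members and counts of gene lists that rest on replicate b are given with and without it.

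The 6 host RNAs enclosed 26 annotated snoRNA genes, 20 of the C/D class and 6 of the H/ACA class. On the mm9 build (NCBIM37), which the files use, the Gas5 model lay at chr1:162965297-162968668 on the plus strand and held 9 snoRNA genes, 6 of them inside its first exon and 3 in introns, since the annotated model keeps the first part of the gene unspliced. Snhg1 (chr19:8797977-8800816, plus strand) had 10 exons of 476 nt in all and carried 8 C/D snoRNA genes, each in an intron. Snhg3 (chr4:131907848-131909601, minus strand) had 3 exons with 2 H/ACA snoRNA genes in the introns, and Snhg5 (chr9:88415891-88417735, minus strand) had 5 exons with 2 C/D genes in the introns. Snhg12 (chr4:131864593-131866939, plus strand) had 5 exons and carried 3 H/ACA genes and 1 C/D gene in its introns. Snhg8 (chr3:123210470-123211254, minus strand) was a single exon of 785 nt with 1 H/ACA gene within it. Neat1 was represented by the short model alone, a single exon of 3177 nt at chr19:5842302-5845478 on the minus strand, although GENCODE vM1 gives the gene a span of 20771 nt. Its values are therefore of the 5′ part that the short and the long isoform share. Malat1 was a single exon of 6982 nt at chr19:5795690-5802671 on the same strand.

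**Figure D1:**
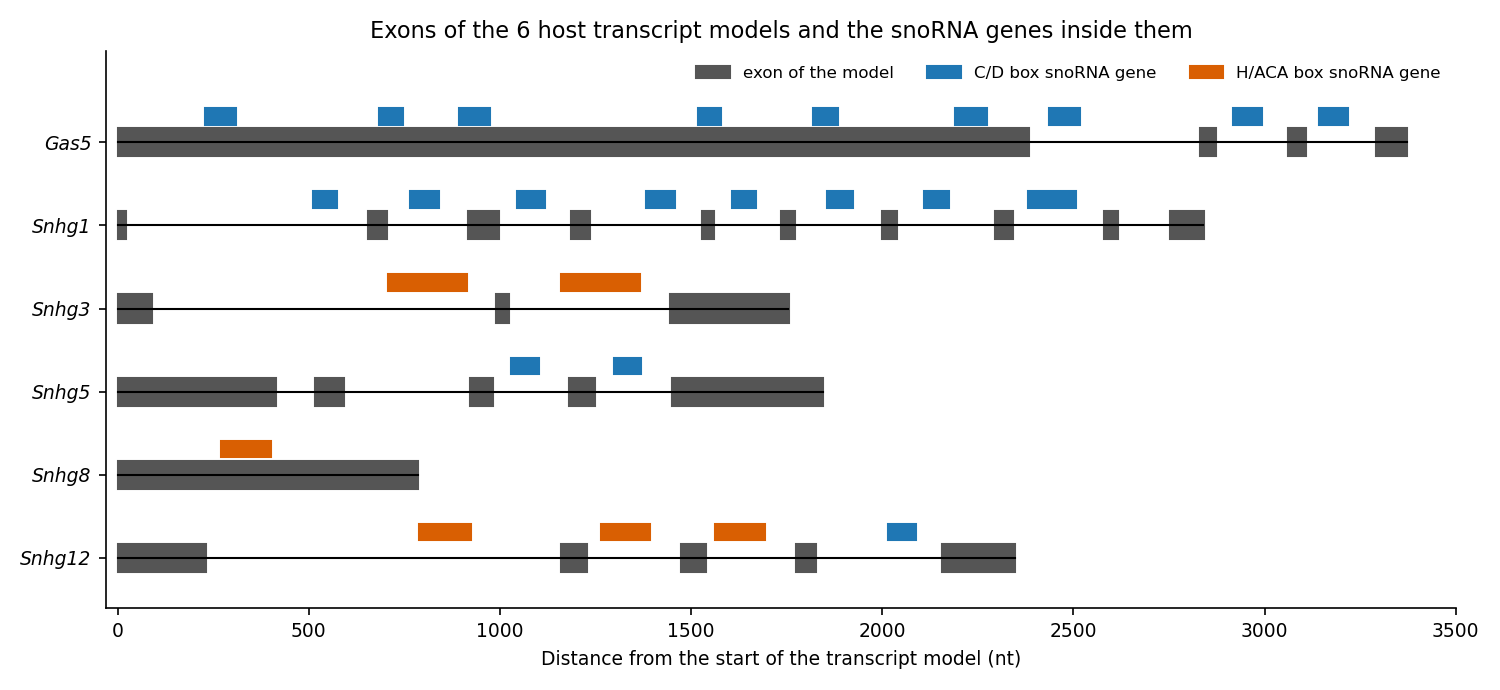
Maps of the 6 host transcript models, with distance from the start of the model in nt on the x axis, exons as grey boxes, C/D snoRNA genes in blue and H/ACA snoRNA genes in orange above them. The 26 snoRNA genes lie in introns, except 6 in the first exon of Gas5 and 1 in the only exon of Snhg8.

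The snoRNAs show what these hosts carry. Shown are 6 of the 26, from 5 of the hosts, in mm9 on the transcribed strand, with the C box (TGATGA, searched in the first 20 bases) and the D box (CTGA, in the last 15 bases) or the ACA box (ACA, in the last 8 bases) in capitals. They are SNORD44 in Gas5 (chr1:162966813-162966872), SNORD27 in Snhg1 (chr19:8799021-8799092), the 2 copies of SNORD50 in Snhg5 (chr9:88416635-88416706 and chr9:88416367-88416438), AC124005.1 in Snhg8 (chr3:123210855-123210984) and Snord99 in Snhg12 (chr4:131866606-131866679).
SNORD44: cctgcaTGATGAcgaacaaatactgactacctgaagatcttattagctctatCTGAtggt
SNORD27: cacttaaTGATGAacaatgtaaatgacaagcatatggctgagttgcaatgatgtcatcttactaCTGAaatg
SNORD50, first copy: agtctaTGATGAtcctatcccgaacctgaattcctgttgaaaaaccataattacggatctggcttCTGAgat
SNORD50, second copy: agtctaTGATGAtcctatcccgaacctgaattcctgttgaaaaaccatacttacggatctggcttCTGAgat
AC124005.1: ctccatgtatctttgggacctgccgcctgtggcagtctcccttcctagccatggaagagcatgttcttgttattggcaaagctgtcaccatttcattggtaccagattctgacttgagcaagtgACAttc
Snord99: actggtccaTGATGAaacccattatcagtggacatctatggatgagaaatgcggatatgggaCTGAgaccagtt
The SNORD50 copies differed at 1 of 72 bases, and Snora73a and Snora73b, the snoRNAs of Snhg3, at 7 of 205. Both C/D boxes were found in 15 of the 20 C/D genes (all 20 had CTGA) and ACA in 5 of the 6 H/ACA genes. Among the other annotated snoRNA genes of the genome, 69.6% of 326 C/D genes held both boxes and 63.7% of 1026 H/ACA genes held ACA.

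The starts of the hosts are shown because host RNAs are known for a pyrimidine run at their first bases, the terminal oligopyrimidine feature that they share with ribosomal protein mRNAs. Each window holds 10 bases before the start of the model and 20 from it on, and capitals mark a C followed by at least 4 bases that are C or T, searched on the transcribed strand only. The windows are chr1:162965287-162965316 (Gas5), chr19:8797967-8797996 (Snhg1), chr4:131909582-131909611 (Snhg3), chr9:88417716-88417745 (Snhg5), chr3:123211235-123211264 (Snhg8), chr4:131864583-131864612 (Snhg12), chr19:5845459-5845488 (Neat1) and chr19:5802652-5802681 (Malat1).
Gas5: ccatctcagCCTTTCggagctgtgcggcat
Snhg1: tcttgtcggcctcatttttccttgttcggg
Snhg3: gaccacgcctgaCTTCCgggcgttacttaa
Snhg5: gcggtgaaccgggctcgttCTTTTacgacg
Snhg8: gttcagaagtCTCTTTggctgcgatccgcc
Snhg12: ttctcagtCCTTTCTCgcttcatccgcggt
Neat1: ctccacctgtaggagttagtgacaaggagg
Malat1: gctctgcgtcaggcattcaggcagcgagag
Such a run was present in the windows of 5 of the 6 hosts (Snhg1 was the exception) and in neither Neat1 nor Malat1. It was present in 37.6% of 10495 tested genes and in 63.5% of 74 tested genes named Rpl or Rps. A run at the first base itself was found for 2 hosts, Gas5 and Snhg8, and for 2.75% of tested genes. The match describes letters in the window of the annotated start, which may not be the start used in these cells.

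Per length, Malat1, Snhg1 and Neat1 were the most abundant of the 10 RNAs and H19 and Meg3 were close to 0. The sources used here do not say whether libraries were made by poly(A) selection or by depletion of ribosomal RNA, so a level here is of the RNA that entered the library, which bears most on Malat1, whose end is not a usual poly(A) tail. Over the 9 libraries the mean was 93.7 FPKM for Malat1, 73.7 for Snhg1, 71.8 for Neat1, 33.1 for Snhg5, 29.2 for Gas5, 22.7 for Snhg3, 20.3 for Snhg12 and 13.2 for Snhg8. On BME at day 1 the order was Malat1, Snhg1, Neat1, Gas5, Snhg5, Snhg12, Snhg3 and Snhg8, and the libraries of Snhg1 overlapped those of Neat1, those of Gas5 overlapped those of Snhg5, and those of Snhg5 overlapped those of Snhg12. On BME + COL at day 5 Snhg1 stood first with no overlap, Snhg5, Malat1 and Neat1 followed with libraries that overlapped between neighbours, and Snhg3 had moved above Snhg12. By group mean Malat1 thus ranked 1 in both BME groups and 3 on BME + COL, where its libraries overlapped those of Snhg5. On BME at day 5 its libraries overlapped those of Neat1, which was above it in replicate b (225 against 159 FPKM).

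Malat1, the nuclear speckle RNA, was highest on BME at day 5. Its FPKM was 91.3, 120 and 75.5 in replicates a, b and c of BME at day 1, 118, 159 and 121 on BME at day 5, and 58.2, 57.6 and 43.5 on BME + COL at day 5. All 3 BME + COL libraries lay below all 6 BME libraries, while the BME libraries of day 1 and day 5 overlapped. The Cufflinks 95% interval of a single library reached at most 1.62% to either side, so sampling of fragments was small beside the spread between cultures.

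Gas5 and Snhg1 carry most of the C/D snoRNA genes of the set. Gas5 was at 25.0, 26.2 and 24.2 FPKM on BME at day 1, at 24.1, 16.3 and 26.7 on BME at day 5, and at 40.8, 40.8 and 39.2 on BME + COL at day 5. Snhg1 was at 52.7, 61.0 and 63.3 FPKM on BME at day 1, at 60.4, 41.5 and 63.9 on BME at day 5, and at 107, 106 and 107 on BME + COL at day 5. In both genes the 3 BME + COL libraries were close together and above every BME library, and BME day 5 replicate b was the lowest of all 9.

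Snhg3, the host of Snora73a and Snora73b, was at 15.6, 14.4 and 15.3 FPKM on BME at day 1, at 14.5, 11.2 and 15.9 on BME at day 5, and at 38.2, 39.6 and 40.1 on BME + COL at day 5. Snhg5, the SNORD50 host, was at 23.3, 25.9 and 20.3 FPKM on BME at day 1, at 26.2, 15.7 and 26.1 on BME at day 5, and at 54.6, 51.7 and 53.6 on BME + COL at day 5. Again no BME library reached the BME + COL range in either gene, and the libraries of BME at day 1 and day 5 overlapped.

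Snhg8 and Snhg12 varied less. Snhg8 was at 12.5, 12.4 and 10.9 FPKM on BME at day 1, at 12.8, 11.3 and 14.9 on BME at day 5, and at 15.7, 13.1 and 15.4 on BME + COL at day 5. Snhg12 was at 16.4, 15.9 and 21.7 FPKM on BME at day 1, at 18.0, 15.9 and 21.8 on BME at day 5, and at 24.9, 24.3 and 23.4 on BME + COL at day 5. The BME + COL libraries of Snhg12 were all above the BME libraries, whereas those of Snhg8 overlapped BME at day 5. The Cufflinks interval of these shorter or weaker RNAs was wide, up to 11.5% to either side for Snhg8 and up to 10.7% for Snhg12. That of Snhg3 was wider still, up to 15.7%.

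**Figure D2:**
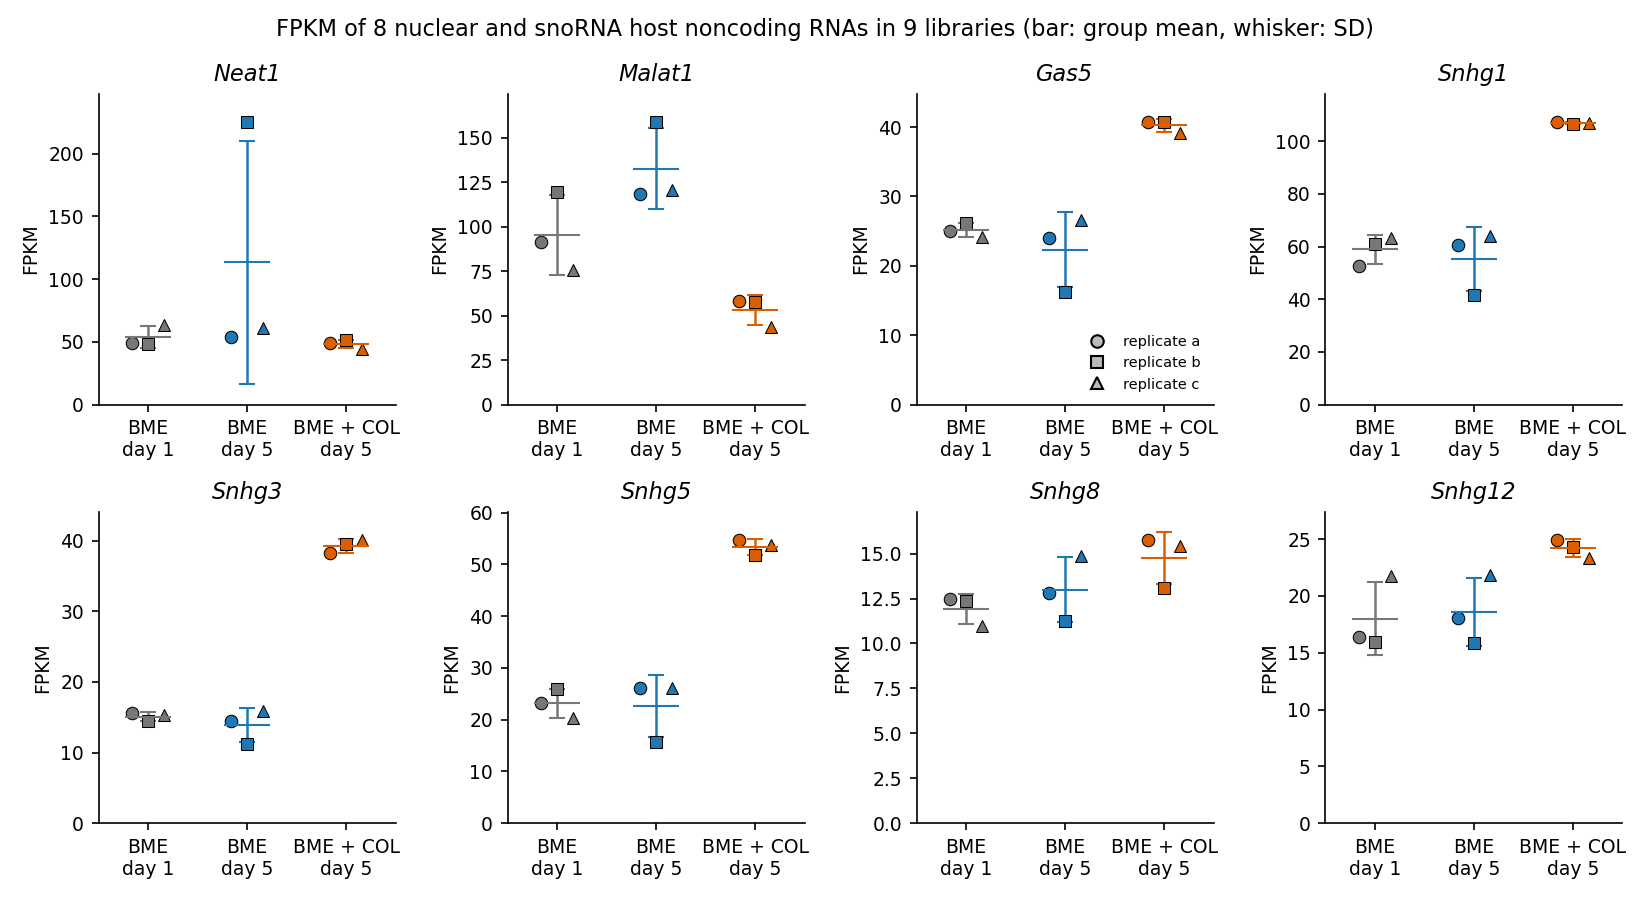
FPKM (y axis, from 0) of the 8 RNAs with a mean of at least 1 FPKM, with 1 point for each library, bars at the group mean and whiskers of 1 SD (n = 3). BME + COL libraries lie above the BME libraries for Gas5, Snhg1, Snhg3, Snhg5 and Snhg12 and below them for Malat1, and Neat1 is set apart by the 225 FPKM of BME day 5 replicate b.

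H19, an abundant RNA of embryonic tissue, was listed at 0.0386, 0.0154 and 0.00768 FPKM on BME at day 1, at 0.0157, 0.00734 and 0 on BME at day 5, and at 0.114, 0.0549 and 0.0775 on BME + COL at day 5. The lower limit of its Cufflinks interval was 0 in all 6 BME libraries and above 0 in the 3 BME + COL libraries. Meg3 did not pass 0.0044 FPKM in any library and was listed at 0 in 4 of the 9. Both fell below the minimum mean of 1 FPKM for testing, so 8 of the 10 RNAs passed it and 7 of these, all but Neat1, were tested. Their paternally expressed partners Igf2 (at most 0.00604 FPKM) and Dlk1 (0 in all 9 libraries) were likewise close to 0 or absent.

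At day 5, Malat1 was higher on BME than on BME + COL, and 5 of the 6 snoRNA hosts were lower. Of the 7 tested RNAs, 6 passed an adjusted p of 0.05 in limma, while 75.6% of all 10497 tested genes did so (30.3% higher and 45.3% lower on BME), so being called is common in this comparison. Of all called genes, 40.06% were higher on BME in FPKM, 59.35% in TPM and 49.97% with median-ratio scaling. Malat1 was 2.49-fold higher on BME (log2 difference 1.32 ± 0.19 SE, adjusted p = 0.000169, n = 3 and 3, limma). Snhg3 was 2.85-fold lower (log2 difference -1.51 ± 0.12 SE, adjusted p = 3.6e-06, limma). Snhg5 (2.41-fold lower, log2 -1.27, adjusted p = 0.00017), Snhg1 (1.96-fold lower, -0.97, adjusted p = 0.000276) and Gas5 (1.84-fold lower, -0.88, adjusted p = 0.000619) were also called in limma. The median difference of all tested genes was -0.18 on the log2 scale, so these RNAs lay 0.70 to 1.33 below it and Malat1 1.5 above it. In TPM, in which all libraries sum to the same total, the median of all genes was 0.16, and Malat1 (1.67), Gas5 (-0.53), Snhg1 (-0.63), Snhg3 (-1.17) and Snhg5 (-0.93) kept their directions and calls.

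Snhg12 and Snhg8 were closest to the median gene. Snhg12 was 1.31-fold lower on BME (log2 -0.39 ± 0.14 SE, adjusted p = 0.0289, limma), but in TPM its difference was -0.05 and it was not called, and it was called in 13 of the 22 alternative analyses. Snhg8 was not called (log2 -0.19, 95% interval -0.45 to 0.07, adjusted p = 0.165, limma), and its sign turned in TPM (0.16). Groups did not overlap for 6 of the 7 RNAs, 1 higher and 5 lower on BME, against 80.1% of all tested genes (32.1% higher and 48.1% lower).

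BME day 5 replicate b pulled these differences outwards without deciding the larger ones. Without it, Malat1 was at 1.18, Gas5 at -0.67, Snhg1 at -0.78, Snhg3 at -1.37 and Snhg5 at -1.03 on the log2 scale, all still called. Without the same library Snhg12 was at -0.29 and not called, and the median of all genes was -0.10. The proliferation genes moved with the hosts, 4 of 4 being lower on BME at day 5 with a median log2 difference of -2.26, and their part in the host differences was not tested.

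**Figure D3:**
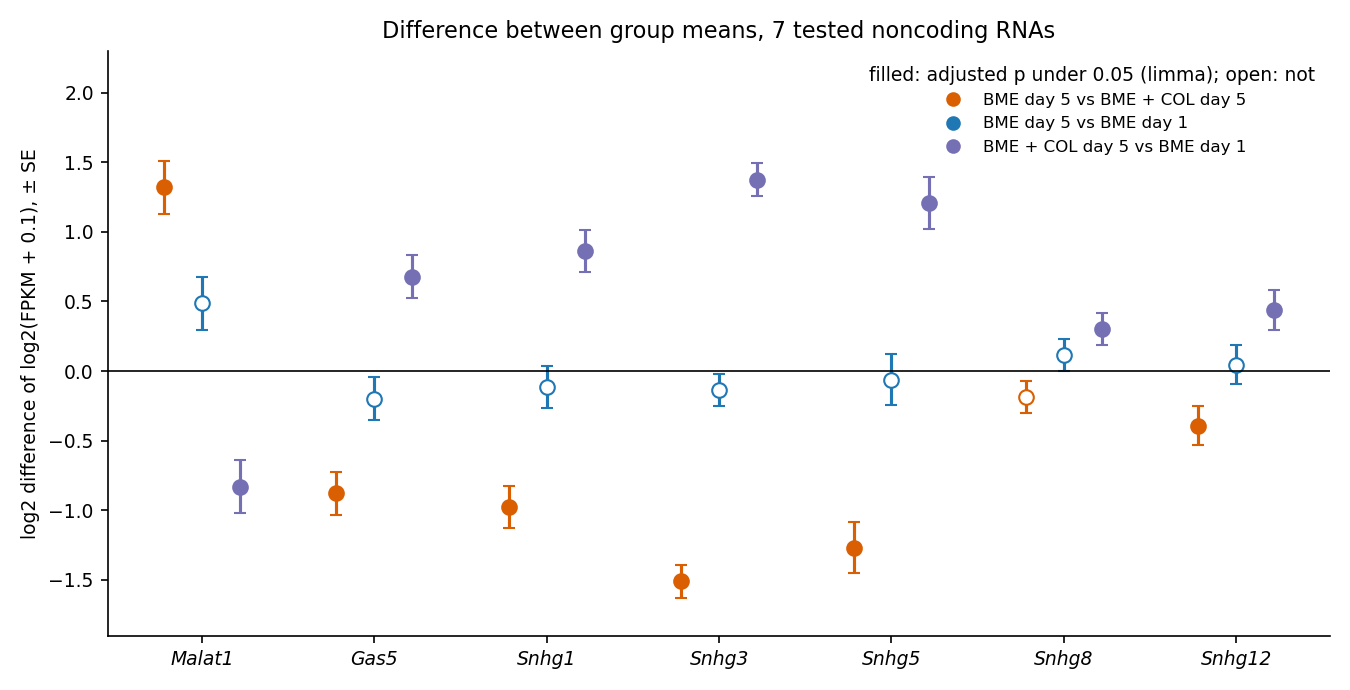
Differences between group means on the log2(FPKM + 0.1) scale (y axis, ± SE from limma) for the 7 tested RNAs in 3 comparisons, with filled points for an adjusted p under 0.05 and open points for the rest. The 5 strongest points of BME day 5 against BME + COL day 5 are Snhg3 at -1.51, Malat1 at 1.32, Snhg5 at -1.27, Snhg1 at -0.97 and Gas5 at -0.88, whereas the points of BME day 5 against BME day 1 lie between -0.20 and 0.49 and are all open.

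Between day 1 and day 5 on BME, none of the 7 tested RNAs was called in limma, while 31.3% of all tested genes were (9.09% higher and 22.2% lower at day 5). The share of called genes that were higher at day 5 was 29.08% in FPKM, 40.69% in TPM and 51.68% with median-ratio scaling. The number of called genes depended on the setting too, with 954 higher and 2327 lower in the main fit. Without genes under 300 nt it was 968 and 1216 of 10417, and with only the 6 libraries compared it was 452 and 618. The shares of all tested genes set beside the lists below for these days are those of the main fit. At an unadjusted p under 0.05 the count among the 7 RNAs was 1, Malat1, against 46.7% of tested genes. Malat1 was 1.40-fold higher at day 5 (log2 0.49, 95% interval 0.06 to 0.91, adjusted p = 0.0759, limma), and its day 1 replicate b, at 120 FPKM, reached into the day 5 range. Without that day 1 library the log2 difference of Malat1 was 0.66 with an adjusted p of 0.0483 in limma. The 6 hosts had log2 differences from -0.20 (Gas5, 95% interval -0.55 to 0.15) to 0.11 (Snhg8, 95% interval -0.14 to 0.37), beside a median of -0.15 over all genes. Day 1 and day 5 libraries overlapped for all 7 RNAs, whereas 49.9% of tested genes had no overlap (12.8% higher and 37.1% lower at day 5). The lower limits of Snhg5 (-0.47), Snhg1 (-0.46) and Snhg3 (-0.40) also left room for a fall of the size seen for Snhg12 between the matrices (-0.39). Without BME day 5 replicate b all 7 differences were above 0, from 0.01 to 0.35, and none was called.

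On BME + COL at day 5 against BME at day 1, all 7 tested RNAs were called in limma, against 66.0% of all tested genes (34.2% higher and 31.8% lower). Called genes were higher on BME + COL in 51.77% of cases in FPKM and in 35.14% in TPM. This comparison shares its libraries with the others, and its values stand beside theirs as a description. Snhg3 (log2 1.38, adjusted p = 1.1e-05), Snhg5 (1.21, 0.000356), Snhg1 (0.86, 0.000871) and Gas5 (0.68, 0.00382) were higher on BME + COL, all with adjusted p from limma. Malat1 was 1.78-fold lower on BME + COL (log2 -0.83, adjusted p = 0.00378, limma). The smaller rises of Snhg12 (0.44, adjusted p = 0.0207) and Snhg8 (0.30, adjusted p = 0.042) in limma were not called in TPM, where they were 0.22 and 0.08. Snhg12 was called in 16 and Snhg8 in 11 of the 22 alternative analyses. The groups of all 7 did not overlap, 6 being higher and 1 lower on BME + COL, against 79.9% of all tested genes (41.6% higher and 38.3% lower).

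Neat1 was even across the series apart from 1 library. It was at 49.4, 48.2 and 63.6 FPKM on BME at day 1, at 54.1, 225 and 60.9 on BME at day 5, and at 48.9, 51.2 and 44.6 on BME + COL at day 5. The 8 libraries other than BME day 5 replicate b spanned 44.6 to 63.6 FPKM (mean 52.6 ± 6.56 SD), and among these the BME day 1 libraries overlapped both other groups, while BME day 5 replicates a and c were above the 3 BME + COL libraries. The level in replicate b was 3.92 times the mean of replicates a and c and 3.54 times the highest of the other 8 libraries. In TPM it was 783 in replicate b against 149 and 175 in replicates a and c, so scaling the libraries to the same total did not remove the gap.

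Few genes stood out as much in that library. By the ratio of replicate b to the highest other library, Neat1 ranked 3 of 10497 tested genes, after the ferroxidase gene Cp (4.92) and Gm12505 (3.60), both named after their values were seen. Neat1 was chosen knowing its level in this library, so its rank is a description and no support of its own. In all, 984 tested genes (9.38%) were highest in replicate b. Malat1 was among them with a ratio of 1.32, a value that 169 tested genes reached or passed.

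In FPKM the hosts went the other way in replicate b. Against the mean of replicates a and c on the log2 scale, replicate b was 1.97 higher for Neat1 and 0.41 higher for Malat1. The gap was -0.73 for Snhg5, -0.63 for Gas5, -0.58 for Snhg1, -0.43 for Snhg3, -0.32 for Snhg12 and -0.29 for Snhg8, while the median tested gene was at -0.24. Thus Snhg5, Gas5, Snhg1 and Snhg3 were lower than the median gene there, and Snhg12 and Snhg8 lay near it. The FPKM total of replicate b (287611) was the lowest of all libraries. The total of replicate a held 7.25% in genes under 300 nt, against 0.670% in b and 1.33% in c, which lowers the TPM of its longer genes. In TPM, Snhg8 (39.2 in b, 35.2 in a and 42.8 in c) and Snhg12 (55.2, 49.5 and 62.8) lay between the other replicates. Snhg3 (39.0, 39.8 and 45.8) was slightly below both. Snhg5 (54.7, 71.9 and 75.1), Gas5 (56.6, 66.0 and 76.8) and Snhg1 (144, 166 and 184) were also below both. Because a single library carries this pattern, no test of it is possible in these data. The summed level of the 6 hosts was 112 FPKM in replicate b, against 156 and 169 in replicates a and c, 145 to 156 on BME at day 1 and 276 to 282 on BME + COL at day 5. Malat1 alone was 1.42 times that sum in replicate b and 0.156 to 0.209 times on BME + COL, with the other 5 BME libraries between 0.485 and 0.768. The same library had the lowest Mki67 (4.88 FPKM) and the lowest depth (7.21 gigabases), and the part of either in the Neat1 level was not tested.

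**Figure D4:**
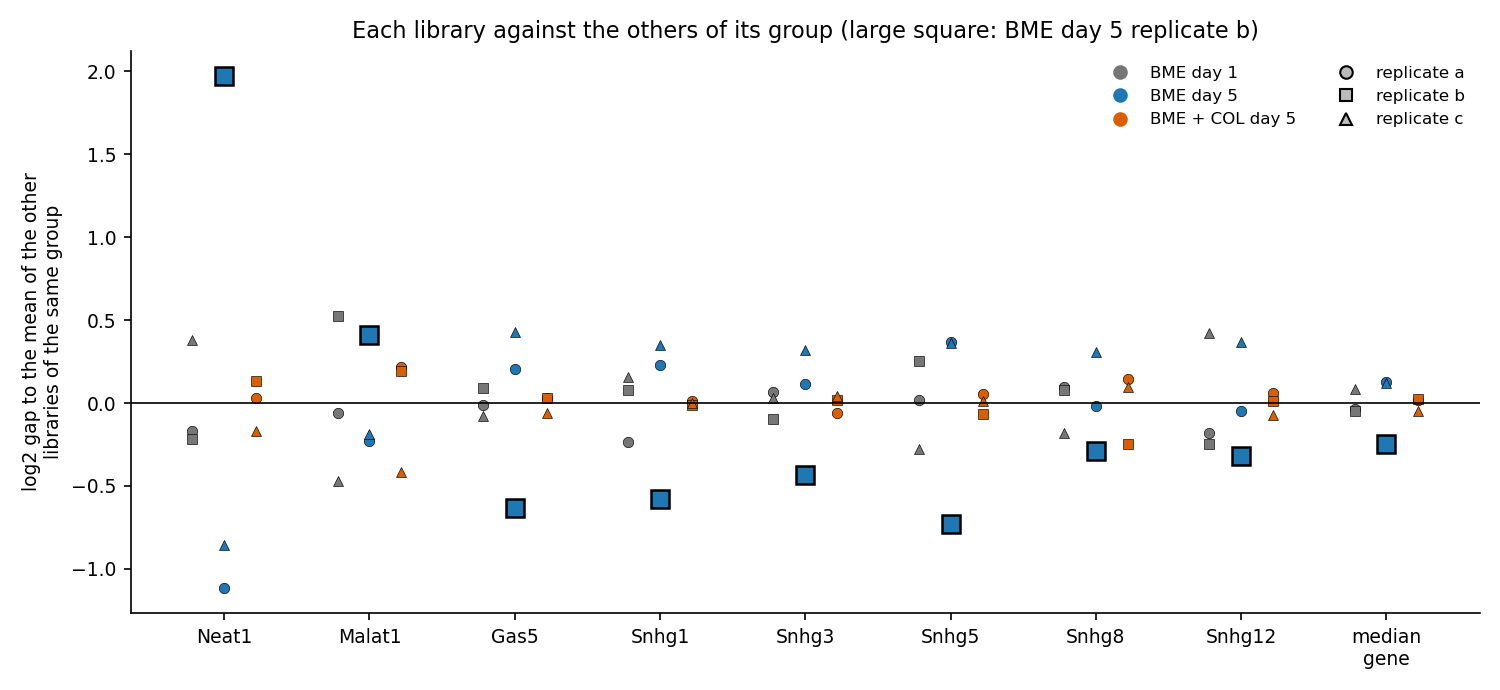
Gap of each library to the mean of the other libraries of its group on the log2 scale (y axis) for 8 RNAs and for the median of all tested genes, with colours for groups and marker shapes for replicates. In FPKM, BME day 5 replicate b, the large square, is 1.97 above its group for Neat1 and 0.41 above for Malat1, and it is 0.29 to 0.73 below for the 6 hosts.

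The genes with the most similar pattern over the 9 libraries were found by Pearson's correlation of log2 values, as a description. For Neat1 they were the pseudokinase gene Trib2 (r = 0.98), the heat shock gene Hspa1b (r = 0.98) and Mir374 (r = 0.97). Trib2 was at 12.1 FPKM in BME day 5 replicate b and at 3.26 to 4.36 in the other 8 libraries, and Mir374 was listed at 0 in those 8, so the likeness rests on replicate b. Without it the r of Neat1 was 0.68 with Trib2 and 0.69 with Hspa1b over 8 libraries. For Malat1 the nearest were Ppp1r9a, Kdm4b and Alcam (r = 0.98 to 0.99), and for Gas5 they were the splicing factor genes Hnrnpa1 and Srsf6 and the m6A reader gene Ythdf2 (r = 0.99 to 1.00). Snhg1 was closest to Itfg2, Rnf8 and Ccsap, Snhg3 to Gcsh, Ntmt1 and Naa10, and Snhg5 to Amotl2, Mnd1 and Rbm12 (r = 0.99 to 1.00 in each case). Snhg12 was closest to Gpx1, Irf7 and Mettl8 (r = 0.97 to 0.98) and Snhg8 to Phpt1, Ndufb11 and Dnajc17 (r = 0.92 to 0.95). These points share 3 groups and library depth, so high values are common.

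Of 6 other tested snoRNA host noncoding RNAs, 3 were lower on BME than on BME + COL at day 5, none was higher and 3 were not called, beside the 45.3% of all tested genes that were lower. Their median log2 difference was -0.30, against -0.18 for all tested genes. Snhg4, a host of H/ACA snoRNAs, was at 5.49 ± 1.05 FPKM on BME and 9.95 ± 1.09 on BME + COL at day 5 (SD, n = 3, log2 -0.86, adjusted p = 0.00065, limma), and the host 1500012F01Rik was at -0.33 (adjusted p = 0.0328, limma). In TPM 1 of the 6 was higher and 1 lower, and the median was 0.04. From day 1 to day 5 on BME 1 of the 6 was higher (9.09% of all tested genes). On BME + COL against BME at day 1, 4 of 6 were higher (34.2% of all tested genes).

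Protein-coding genes that host snoRNAs in their introns were lower on BME in 29 of 31 cases, with none higher and a median of -0.89. Among all tested genes 45.3% were lower in that comparison. Rcc1, the chromatin-bound exchange factor for Ran, is the neighbour whose GENCODE transcripts overlap Snhg3 on the same strand, and it was at 11.4, 5.43 and 9.71 FPKM on BME against 47.0, 47.1 and 47.6 on BME + COL at day 5 (log2 -2.47, adjusted p = 8.02e-06, limma). Nop58, a core protein of C/D snoRNPs that itself hosts a snoRNA, was at 36.9 ± 11.2 FPKM on BME and 142 ± 4.11 on BME + COL (SD, n = 3, log2 -1.999, adjusted p = 1.58e-05, limma). Eif4a2 and Tpt1 were the 2 not called, at -0.03 each. From day 1 to day 5 on BME 9 of 31 were lower and 1 higher, beside 22.2% and 9.09% of all tested genes. On BME + COL against BME at day 1, 20 were higher and 1 lower, beside 34.2% and 31.8% of all tested genes.

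Genes of proteins that assemble with snoRNAs had lower RNA levels on BME at day 5. The 18 tested snoRNP core and assembly genes were all called lower against BME + COL, beside 45.3% of all tested genes. Their median log2 difference was -1.62, with values from -2.05 to -0.49. Ruvbl2, an ATPase of the assembly complex, was at -2.05 (adjusted p = 3.95e-06, limma) and Znhit3, an assembly factor, at -2.002 (adjusted p = 9.95e-07, limma). All 18 were likewise higher on BME + COL than on BME at day 1 (34.2% of all tested genes). From day 1 to day 5 on BME 8 were lower (22.2% of all tested genes). In TPM 17 of the 18 stayed called at day 5, with a median of -1.28.

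The mRNAs of protein partners of Neat1 and Malat1 were mostly lower on BME, the direction opposite to that of Malat1. At day 5, 18 of 19 tested paraspeckle protein genes were called lower against BME + COL (median -0.92), beside 45.3% of all tested genes, and Cirbp was not called at 0.50. Sfpq was at 55.0, 34.6 and 55.1 FPKM on BME against 98.6, 95.1 and 94.1 on BME + COL (log2 -1.02, adjusted p = 0.000274, limma), and the largest differences were those of Rbm14 (-1.55, adjusted p = 6.81e-06, limma) and Pspc1 (-1.37, adjusted p = 2.26e-05, limma). In BME day 5 replicate b, Sfpq and Nono (84.8 FPKM, against 115 and 118 in replicates a and c) were at their lowest of all 9 libraries. The FPKM total of that library was the lowest too, and its median tested gene was 0.24 below replicates a and c (log2). Low FPKM there is thus not particular to these genes, and a link to Neat1 was not tested. Of 15 nuclear speckle protein genes, 12 were lower on BME, beside the same 45.3% of all tested genes. Srsf2 was at -1.32 (adjusted p = 1.63e-05, limma) and Srsf7 at -1.27 (adjusted p = 1.85e-05, limma), and Srsf5 was higher at 0.27 (adjusted p = 0.00863, limma). From day 1 to day 5 on BME 7 of the 19 paraspeckle genes and 1 of the 15 speckle genes were lower, and none was higher. Among all tested genes 22.2% were lower and 9.09% higher between these days.

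Genes of nonsense-mediated decay factors, which degrade many spliced hosts, were lower on BME in 12 of 14 cases (median -0.66), beside 45.3% of all tested genes. Eif4a3 and Magoh, subunits of the exon junction complex, were at -1.32 (adjusted p = 2.45e-06, limma) and -1.31 (adjusted p = 0.000316, limma), and the endonuclease gene Smg6 was higher at 0.18 (adjusted p = 0.0444, limma). Of the other nuclear or long noncoding RNAs, 5 of 11 were higher on BME at day 5 and 2 were lower, with a median of 0.33. Among all tested genes 30.3% were higher and 45.3% lower. Rmrp (-1.04 ± 1.08 SE) and Rpph1 (-0.51 ± 1.03 SE) were not called, with 100 and 30.5 FPKM in BME + COL replicate c. In the other libraries they did not pass 8.10 and 3.85 FPKM. The microRNA host Mir22hg was at 20.8, 17.5 and 22.8 FPKM on BME and 7.86, 7.42 and 6.84 on BME + COL (log2 1.45, adjusted p = 2.64e-06, limma), and 2900097C17Rik was at 0.81 (adjusted p = 3.35e-05, limma). Of 20 listed genes, imprinted ones and others of their network such as Igf2bp2, 5 were tested. Of these, 1 was higher on BME and 2 were lower, beside 30.3% and 45.3% of all tested genes. The growth factor receptor gene Igf2r was at 26.1 ± 2.67 FPKM on BME against 11.2 ± 0.58 on BME + COL (SD, n = 3, log2 1.21, adjusted p = 2.29e-06, limma), and Igf2bp2 was at -0.62 (adjusted p = 6.08e-05, limma). The larger fall was that of Phlda2, a gene of low level, at 0.956 FPKM on BME against 7.89 on BME + COL (log2 -2.96, adjusted p = 1.24e-06, limma).

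Left out of the fit, BME day 5 replicate b did not set these counts, except that 2 instead of 3 of the 6 other hosts were lower. Without it the counts lower on BME were 29 of 31 protein-coding hosts, 18 of 18 snoRNP genes, 18 of 19 paraspeckle genes, 12 of 15 speckle genes and 12 of 14 decay factors. Among all tested genes 4675 of 10497 were then lower, and Cirbp was called higher at 0.77. In TPM the counts lower on BME were 26, 17, 16, 9 and 9 in that order, with every median still below 0, beside 3327 of 10497 tested genes. The counts from day 1 to day 5 on BME did change without this library. Lower at day 5 were then 16 of 31 protein-coding hosts (9 with it), 11 of 18 snoRNP genes (8 with it), 9 of 19 paraspeckle genes (7 with it) and 2 of 15 speckle genes (1 with it), and 3 of the 6 other hosts were higher (1 with it). The medians moved towards 0, from -0.38 to -0.19 for the protein-coding hosts, from -0.40 to -0.21 for the snoRNP genes and from -0.30 to -0.11 for the paraspeckle genes. Among all tested genes 2626 were then lower and 1267 higher, against 2327 and 954 with it. On BME + COL against BME at day 1, where the library enters only through the shared spread, 29 of 31 protein-coding hosts were higher without it (20 with it). Among all tested genes 4262 were higher without it and 3588 with it.

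**Figure D5:**
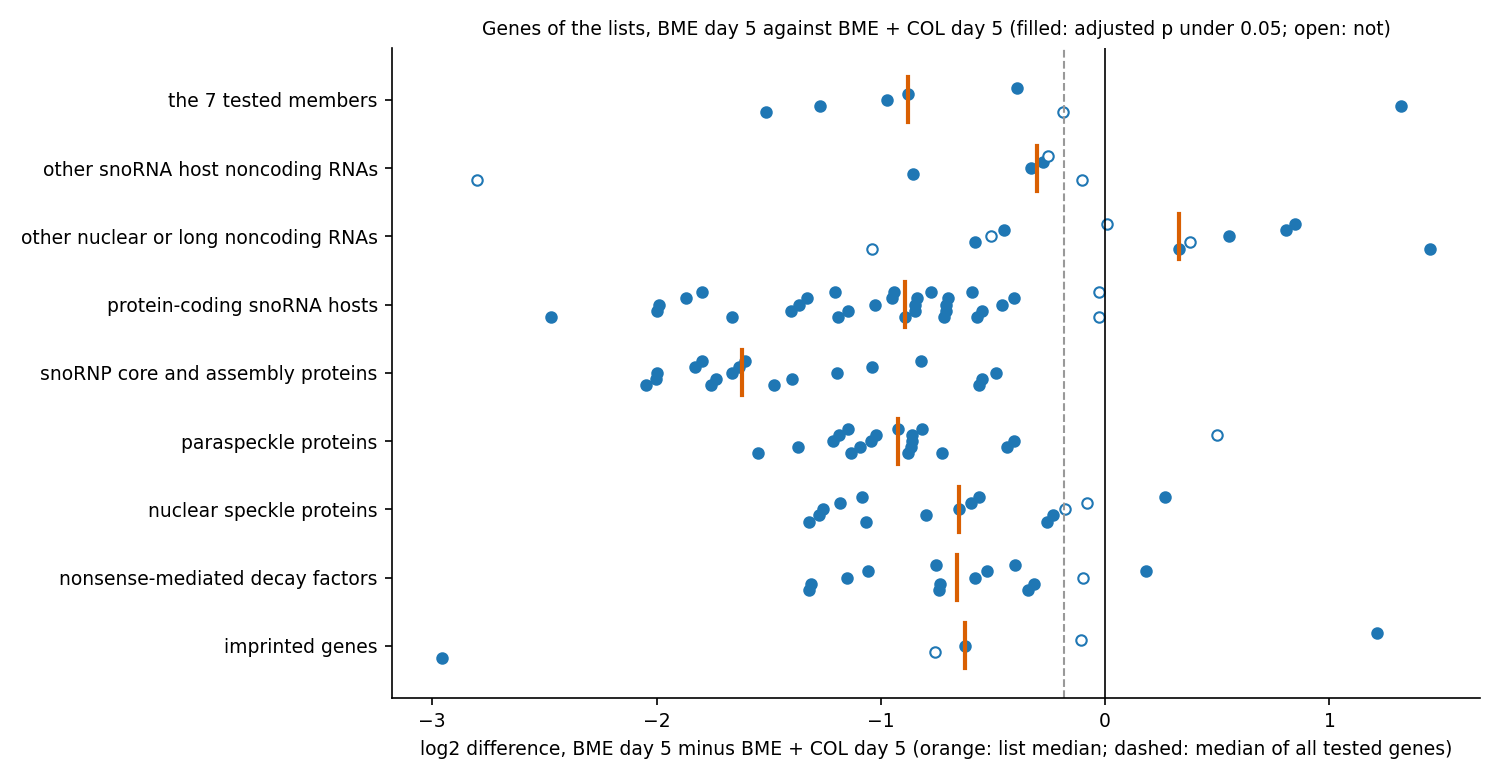
Log2 difference between BME day 5 and BME + COL day 5 (x axis) of every tested gene of 9 lists (rows), with filled points for an adjusted p under 0.05, orange bars at the list medians and a dashed line at the median of all tested genes (-0.18). The snoRNP protein genes have the lowest median (-1.62), the 7 tested RNAs have a median of -0.88 with Malat1 alone at 1.32, and the other nuclear or long noncoding RNAs have a median of 0.33.

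Reads of overlapping genes were assigned in the authors' files. The small RNA Snora24 occupies the same bases as AC124005.1 within the exon of Snhg8 and was listed at 0 or close to it (at most 3.38e-05 FPKM), and Snord47 in Gas5 was listed at 0 in all libraries but BME + COL replicates b and c (3067 and 818 FPKM). Of 7 snoRNA entries of the files that lie inside the hosts, 5 were listed at 0 in most libraries, so levels of the mature snoRNAs were not compared. Malat1 has an antisense transcript, Gm20417, in GENCODE, and Snhg3 has one, Gm17300. The study's methods name a directional library kit, but how strand was used in counting is not given in the sources used here.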

How the data were processed

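RNA of D2.0R cells was sequenced in 9 libraries (3 groups of 3 biological replicates). The authors deposited 1 Cufflinks file per library, with FPKM for each of 30563 transcripts; upstream tools, by the submitters' processing notes, were TopHat2 2.0.8, Trimmomatic 0.30, CASAVA 1.8.4 and Partek, on the mm9 (NCBIM37) build. The Cufflinks version is not given in the sources used here. Because deposited FPKM are not counts, no count model was used, and the study's own test, run in Partek on alignments, could not be repeated. FPKM were summed per gene symbol (23309), and the 10497 whose mean over the 9 libraries reached 1 FPKM were tested on log2(FPKM + 0.1) with limma 3.58.1 in R 4.3.3 (intensity trend, all 9 libraries with 1 mean for each of 3 groups, leaving 6 residual degrees of freedom, two-sided, Benjamini-Hochberg over all genes, called at 0.05). A fold change on that scale understates the change of low genes. The same fit was tested on simulated data of known change. The members and lists were chosen with earlier results of these data known.

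Named genes were all 10 members, for each tested member and for Neat1 the 3 tested genes with the highest correlation, and from each list up to 2 called genes in each direction with the largest change at day 5 and a mean of at least 5 FPKM; members of a list outside this rule were named after their values were seen. Sequences and annotation came from mm9 and GENCODE vM1, on which 52 of 52 introns of the members had GT-AG ends. Libraries with the same replicate letter did not deviate together (0 of 9 same-letter pairs with a correlation over 0.1), so letters were not used as pairs. Depth is taken as gigabases over transcripts, and the intervals that Cufflinks gives cover counting error only. Alternatives were 2 other pseudocounts, 2 other filters, 3 other scalings, removal of genes under 300 nt, the most abundant transcript, no intensity trend, only the 6 libraries compared, a threshold of 0.01, the replicate letter as a block and leaving out each library.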

Additional observations from a re-analysis of the deposited data

How the results depend on the processing

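The 7 tested RNAs gave 5 to 7 calls in BME day 5 against BME + COL day 5 (6 in the report) and 5 to 7 in BME + COL day 5 against BME day 1 (7 in the report) over 22 alternatives (H19 and Meg3 being tested too where no filter was set), and 0 or 1 in BME day 5 against BME day 1. In the last comparison, 1 call, Malat1, appeared with quantile normalization (log2 0.67, adjusted p = 0.0434, limma), with the replicate letter as a block (1 call, 0.49, adjusted p = 0.024, limma; the letters were not shown to pair the libraries) and without BME day 1 replicate b, and leaving out libraries gave 0 to 1 calls. Malat1, Gas5, Snhg1, Snhg3 and Snhg5 kept direction and call in both matrix comparisons under all 22. Snhg12 at day 5 lost its call in TPM, median-ratio scaling (-0.21), quantile normalization (-0.10), at a threshold of 0.01 and without BME day 5 replicate a or b or any single BME + COL library. Signs turned without a call for Snhg8 at day 5 in TPM (0.16) and quantile normalization (0.042). Between the BME days they turned for Snhg1 (0.0058 in TPM, 0.029 with median ratios, 0.059 with quantiles), Snhg3 (0.0075 with median ratios, 0.0077 with quantiles) and Snhg5 (0.058, 0.080 and 0.11 in the order TPM, median ratios and quantiles). Leaving out 1 library gave between the BME days -0.34 to 0.013 for Gas5, -0.23 to 0.079 for Snhg1, -0.24 to 0.010 for Snhg3, -0.18 to 0.18 for Snhg5 and -0.075 to 0.19 for Snhg12. The log2 difference of Neat1, given with no test, fell from 0.91 to 0.25 at day 5 without BME day 5 replicate b. With no filter, H19 was tested too and was lower on BME at day 5 (-0.75, adjusted p = 0.0017, limma) with levels of at most 0.114 FPKM. Causes of these shifts were not tested.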

Other observations

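Some structured RNAs, but not all, stood out in BME + COL day 5 replicate c. The ribosomal precursor entry Rn45s was at 3105 FPKM there and at 102 to 201 FPKM in the other 8 libraries. The intronic snoRNA Snord22 of Snhg1 was at 175 FPKM in that library and at 19.97 to 61.8 in the others, while its host Snhg1 was at 107, 106 and 107 FPKM in the 3 BME + COL libraries. Rmrp and Rpph1, the RNA components of RNase MRP and RNase P, were at 100 and 30.5 FPKM there and did not pass 8.10 and 3.85 FPKM in the other 8 libraries. These 2 RNAs belong to the other nuclear or long noncoding RNAs compared above. Snord47 of Gas5 was at 818 FPKM in BME + COL replicate c against 3067 in replicate b. Snora16a of Snhg12 was at 3.01 FPKM in BME + COL replicate c against 4.78 and 8.48 in replicates a and b.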
